A study of Homo sapiens with 30 samples.

Results

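Control MEL624 cells were compared between RNA 5' ends that an m6A antibody pulled down (the immunoprecipitation, IP) and the 5' ends that went into the pull-down (the input). Genes were taken from the deposited table of reads at transcription start sites, and each gene's value is the mean of the 3 control IP libraries minus the mean of the 3 control input libraries on the log2 scale. The comparison used 6 of the 30 samples of the series and all 16009 genes of the table. A further 6 libraries from PCIF1 knockout cells entered the statistical fit only to estimate the spread, and no result for them is given.

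The study mapped N6,2'-O-dimethyladenosine (m6Am) in MEL624, a human melanoma cell line, with m6Am-Exo-Seq, in which an exonuclease digests RNA that lacks a protecting cap before the antibody step. The control IP libraries came from cells of the genotype wild type with a random sgRNA, and were made with antibody 4, a mouse monoclonal raised against m6A (clone 212B11, Synaptic Systems). The control input libraries came from cells of the same genotype, without the antibody step. Both kinds shared the growth medium, the start from about 20 M cells and 200 ug of total RNA, and a repeated poly(A) mRNA purification on magnetic beads. The design text calls the 3 replicates biological, and says of the first stage of the study that 1 control cell line was used, so that the libraries may all describe 1 line.

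In human cells most mRNAs begin with a cap (m7G) followed by a base that is methylated on its ribose, and where that base is adenosine the enzyme PCIF1 can add a second methyl group to give m6Am. The antibody was raised against m6A, the same methyl group on adenosines inside the RNA, and it recognises m6Am as well. A separate class of mRNAs, the 5' terminal oligopyrimidine (TOP) mRNAs, begins with a cytidine followed by a run of pyrimidines and encodes mainly ribosomal proteins and translation factors. Small nucleolar RNAs (snoRNAs) are cut out of introns and carry no such cap, and 7SL and other RNA polymerase III transcripts start with a triphosphate or a different cap.

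The deposited values are log2 CPM, reads scaled to an effective size of each library, so a gene can only be said to be higher or lower in the IP relative to the other genes. The effective sizes were 0.928 to 0.944 times the recovered reads in the control IPs and 1.05 to 1.07 times in the control inputs, so that a difference lies 0.18 above the log2 ratio of the gene's shares of reads. CPM counts reads at one start, in a window whose size is not given in the sources used here, and it was not compared between genes as an amount of RNA. The reads recovered from the values numbered between 4035815 and 4625190 per control IP library and between 3232562 and 4094070 per control input library. Across genes, log2 CPM correlated at 0.966 to 0.968 between IP libraries and at 0.966 to 0.970 between input libraries, against 0.881 to 0.891 between an IP and an input library. The 100 genes with the most reads took 22.3% of the reads in the IPs and 22.5% in the inputs. The label of the cells was checked against markers. Of 9 melanocyte markers 2 (MITF and MC1R) were among the measured genes, with a summed level of 20.97 to 26.1 CPM in the IPs and 24.0 to 30.8 CPM in the inputs, and the markers that define pigmented melanocytes, such as MLANA, PMEL and TYR, were not. Of 6 leukocyte markers 1 (CD68) was measured, at 243 to 266 CPM in the IPs and 145 to 152 CPM in the inputs, and no marker of keratinocytes, fibroblasts or endothelial cells was. The gene records of MC1R and CD68 start within or near other genes on the same strand, so their reads may come from those genes.

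Of the 16009 genes, 8944 (55.9%) differed between IP and input at an adjusted p under 0.05 in limma with a mean-variance trend. On the deposited scale 4429 genes (27.7%) were higher in the IP and 4515 (28.2%) lower. With each library scaled to its total of recovered reads instead, 3667 (22.9%) were higher and 5310 (33.2%) lower. At a difference of at least 2-fold besides, 2457 genes (15.3%) were higher in the IP and 2697 (16.8%) lower. The 3 IP values lay above all 3 input values in 5288 genes (33.0%) and below them in 5355 (33.4%). The median difference over all genes was -0.01 on the log2 scale, with quartiles of -0.82 and 0.72, so that the deposited scaling set the middle gene at no change.

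**Figure D1:**
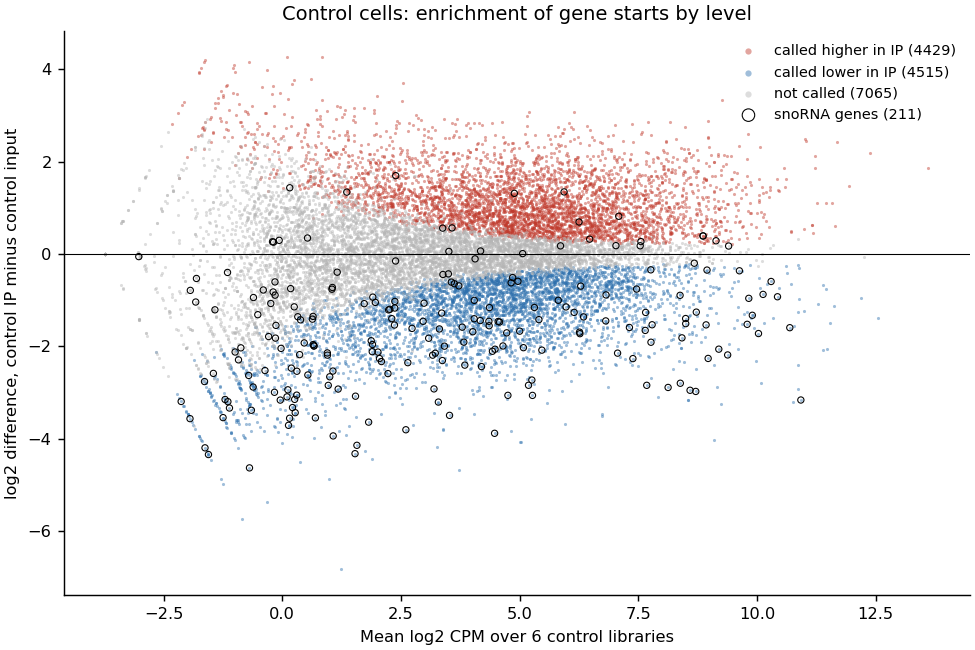
Each point is 1 of 16009 genes, with the mean log2 CPM over the 6 control libraries on the x axis and the log2 difference, control IP minus control input, on the y axis. The 4429 genes called higher and the 4515 called lower spread over the whole range of levels, and most of the 211 circled snoRNA genes lie below 0 under the deposited scaling.

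The zero point was a choice of scaling. When each library was centred on its median over the 85 measured cytosolic ribosomal protein genes, all differences moved up by 1.21, 10192 genes (63.7%) were higher in the IP and 846 (5.28%) lower. Directions below hold for the deposited scaling. Every median between -1.21 and 0 turns positive under this centring, called ribosomal-protein-centred, and its value is given for the lists and classes as a whole. Every median between 0 and 0.18 falls below 0 with each library scaled to its total of reads, 9 of the 49 lists below turning sign. Distances between a group of genes and the median of all genes do not depend on it. Lists and classes are described by counts and medians beside those of all genes, and no test of a list was made. Every gene said to be higher or lower passed the test over all genes.

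Named genes with the largest differences were protein-coding genes with a mean log2 CPM of 5 or more, no overlap between the 3 IP and 3 input values, and a start set apart from other genes on the same strand. Of 4328 genes open to this choice, the 12 with the largest difference each way are given, with adjusted p between 4.43e-15 and 3.49e-10 in limma. The start sequences of some of them are shown first, because the base that follows the cap is what the enzyme can methylate. Each line gives 30 bases of hg38, read on the gene's own strand from 5' to 3', with the first base of the GENCODE 44 canonical transcript in capitals, 20 bases before it and 9 after it. The genes higher in the IP come first.
HNRNPM, chr19:8444955-8444984, plus strand: gcggtgcagcccgttcgctcAcacaaagcc
EPB41L2, chr6:131063236-131063265, minus strand: ggccccagtcagggaatttcAatttgaaac
FKBP3, chr14:45134472-45134501, minus strand: gaactgcggcgggctggctcAgtaaagcgg
PDCD4, chr10:110871908-110871937, plus strand: caaacagagcgagaagggccAgagactctc
MAGT1, chrX:77895426-77895455, minus strand: cctagccggagcaaagtttcActtatagaa
PIN4, chrX:72181737-72181766, plus strand: gcttgtacggcaactggagcGgttcagcgt
RPL12, chr9:127451397-127451426, minus strand: cttgtccgcgcgatttccggCctctcggct
RPSA, chr3:39406700-39406729, plus strand: cgtcatttcctgccgcctgtCttttccgtg
RPLP0, chr12:120201102-120201131, minus strand: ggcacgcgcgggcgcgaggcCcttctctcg
RPS16, chr19:39435940-39435969, minus strand: ccagggtggcccctagctttCcttttccgg
RPL27A, chr11:8682772-8682801, plus strand: gagacttggcgaaggccttcCtttttcgtc
RPS12, chr6:132814549-132814578, plus strand: ggcatgcgtgcggatgaggcCtctttccct
RPL4, chr15:66504846-66504875, minus strand: acatatacagcgggagtggtAagcacttcc
TRAP1, chr16:3717515-3717544, minus strand: cccgcgtggctgcgcgcggcGctctgggag
The annotated starts of the 12 genes highest in the IP were 8 A, 4 G and 0 C, and those of the 12 lowest were 1 A, 4 G and 7 C. None of the 12 highest and 8 of the 12 lowest encode cytosolic ribosomal proteins.

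HNRNPM, an RNA-binding splicing regulator (chromosome 19, 8444767 to 8489114), had 1901, 2012 and 1919.5 CPM in the control IPs, against 217, 185 and 179 CPM in the control inputs. The difference of 3.33 ± 0.09 (log2, SE) was the largest of the 12. All IP values lay far above all input values. EPB41L2, a membrane-skeleton protein of the band 4.1 family, had 561, 559.8 and 563 CPM in the IPs, against 79.6, 69.5 and 81.2 CPM in the inputs (2.87 ± 0.09). FDPS, which makes farnesyl pyrophosphate in the mevalonate pathway, had 833, 789 and 708 CPM in the IPs, against 131, 100.4 and 90.6 CPM in the inputs (2.87 ± 0.13). FAM32A, a spliceosome component of the second splicing step, had 868, 982 and 954 CPM in the IPs, against 142, 138 and 135 CPM in the inputs (2.75 ± 0.09). Neither FDPS nor FAM32A has an annotated A start, and in both the IP and input values stood clearly apart.

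PIN4, a parvulin-type prolyl isomerase, had 80.4, 124 and 121 CPM in the IPs, against 11.4, 13.1 and 13.2 CPM in the inputs (3.09 ± 0.18). PLEKHA4, a pleckstrin-homology-domain protein, had 98.6, 111 and 94.3 CPM in the IPs, against 14.6, 10.6 and 12.9 CPM in the inputs (3.003 ± 0.20). PCF11, a factor of mRNA 3' cleavage and termination, had 165, 186 and 179 CPM in the IPs, against 25.6, 25.05 and 22.8 CPM in the inputs (2.85 ± 0.10). The spread among PIN4's IP libraries was the widest of these, with 1 library lower than the other two. PDCD4, an inhibitor of the initiation helicase eIF4A, had 205, 234 and 232 CPM in the IPs, against 32.3, 30.1 and 35.4 CPM in the inputs (2.78 ± 0.11). The others of the 12 were FKBP3 (a prolyl isomerase, 2.82 ± 0.17), NOL6 (a nucleolar factor of small-subunit assembly, 2.79 ± 0.13), EPG5 (an autophagosome tether, 2.79 ± 0.11) and MAGT1 (an oligosaccharyltransferase subunit, 2.76 ± 0.13).

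RPL12, a protein of the large ribosomal subunit (chromosome 9, 127447674 to 127451406), had 124, 155 and 130.3 CPM in the control IPs, against 2457, 2187 and 2045 CPM in the control inputs. The difference of -4.03 ± 0.11 was the largest fall among the 12. RPSA, the laminin-receptor protein of the small subunit, had 32.9, 35.5 and 27.7 CPM in the IPs, against 425, 339 and 325 CPM in the inputs (-3.50 ± 0.13). RPLP0, of the ribosomal stalk, had 196, 204 and 193 CPM in the IPs, against 2104, 1786 and 1759 CPM in the inputs (-3.25 ± 0.10). RPS16, of the small subunit, had 599, 590.2 and 542 CPM in the IPs, against 5427, 5249 and 5156 CPM in the inputs (-3.19 ± 0.11). All 4 of these genes begin with a C in the annotation, and their IP and input values did not come close to overlapping. RPL27A, RPS20 and RPS12, which also have a C start, differed by -3.08 ± 0.09, -2.92 ± 0.11 and -2.68 ± 0.10.

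RPL4, also of the large subunit, has an annotated A start and still had 18.2, 19.5 and 14.8 CPM in the IPs, against 236, 206 and 229 CPM in the inputs (-3.68 ± 0.12). The non-ribosomal genes among the 12 lowest were TRAP1, a mitochondrial chaperone of the HSP90 family, TTC17, a tetratricopeptide-repeat protein, SF3B3, a subunit of the U2 snRNP, and HMGXB3, an HMG-box protein. TRAP1 had 32.2, 27.4 and 38.4 CPM in the IPs, against 394, 353 and 324 CPM in the inputs (-3.46 ± 0.14). The differences were -2.94 ± 0.14 for TTC17, -2.71 ± 0.19 for SF3B3 and -2.67 ± 0.17 for HMGXB3. A gene on the other strand lies at or near the outer 5' end of the gene record in 3 of the 12 highest and 7 of the 12 lowest, RPL12 and RPL4 included. That end can lie far from the canonical start shown, at 66524532 against 66504855 in RPL4 and 77899271 against 77895435 in MAGT1. The strand setting of the counting is not given in the sources used here. Where the counted start is that end, reads of such pairs cannot be told apart.

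**Figure D2:**
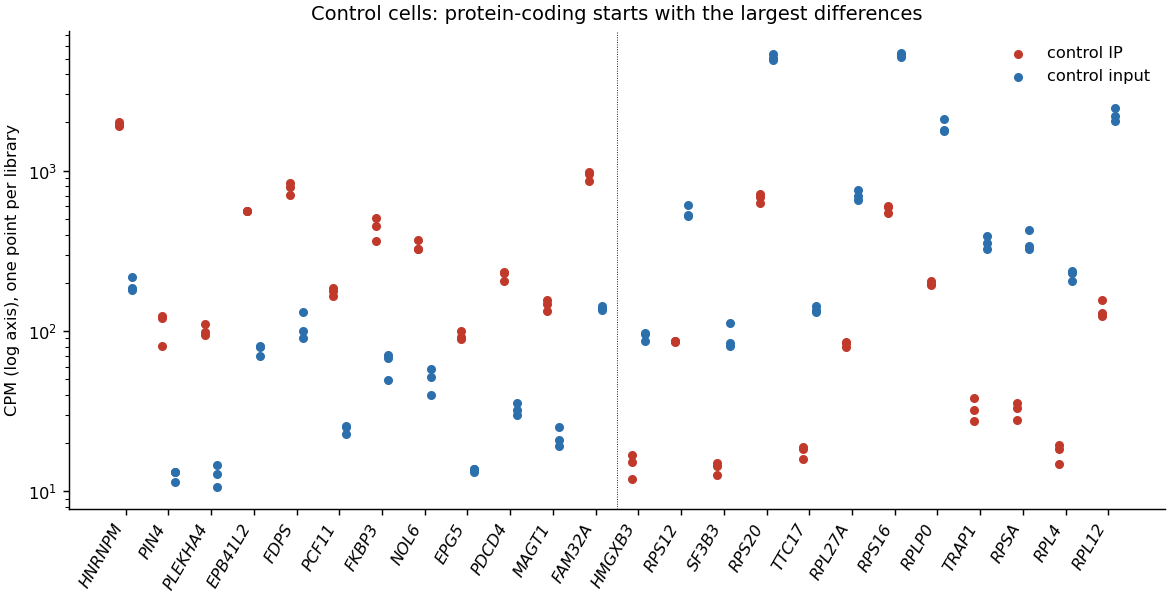
CPM at the start of the 12 genes highest and the 12 genes lowest in the IP, on a log axis, with 1 point per library (control IP left in each pair, control input right). HNRNPM reached 1901 to 2012 CPM in the IPs against 179 to 217 CPM in the inputs, and RPL12 124 to 155 CPM against 2045 to 2457 CPM; no gene shows overlap.

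The genes with the most reads at their starts moved in both directions. FTH1, the heavy chain of the iron store ferritin, had the most reads in the IPs, with 23814, 25192 and 22992 CPM, against 6555, 6668 and 6380.1 CPM in the inputs (1.88 ± 0.11). YBX1, a cold-shock-domain protein that binds mRNA, had 10837, 10785 and 12413 CPM in the IPs, against 2486, 2330.3 and 2646 CPM in the inputs (2.19 ± 0.11). MT2A, a metal-binding metallothionein, differed by 2.42 ± 0.11 and ACTN4, an actin crosslinker, by 2.13 ± 0.10. RPLP1, of the ribosomal stalk, had the most reads in the inputs, with 3901, 3634 and 3577 CPM in the IPs, against 10036, 9434 and 9387 CPM in the inputs (-1.38 ± 0.12). GAPDH, a glycolytic enzyme, had 1442, 1384 and 1326 CPM in the IPs, against 6112, 5558 and 5688 CPM in the inputs (-2.06 ± 0.12). RPL8 of the large subunit differed by -2.07 ± 0.10. RPLP1, GAPDH, FTH1 and many ribosomal protein genes have near-identical processed pseudogenes, and how reads that fit several copies were counted is not given in the sources used here.

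Genes were then grouped into 49 lists by the function of their products, and a gene can belong to more than one. The median of 34 lists lay above that of all genes and the median of 15 below it. It lay at least 0.5 above in 7 lists and at least 0.5 below in 4. Level also moved with the difference. Over quintiles of the protein-coding genes by mean level, the share higher in the IP was 10.5%, 22.6%, 32.4%, 39.5% and 51.7% and the median difference -0.14, -0.07, -0.02, 0.08 and 0.31, from the lowest quintile to the highest. Against the median of coding genes in the same quintile of level, 27 of the 49 lists lay higher. The median of a list's own quintile was 0.31 for 19 lists and between -0.07 and 0.08 for the others. These 19 include cytosolic aminoacyl-tRNA synthetases, ribosome biogenesis factors, complex I, proteasome subunits, hnRNP proteins and SR splicing factors. Replication-independent histones, glycolytic enzymes, the integrated stress response and genes of dedifferentiated melanoma are also among them. Their counts are to be read beside the 51.7% higher of that quintile. The other lists were in quintiles 2, 3 and 4, and their counts are to be read beside 22.6%, 32.4% and 39.5% higher. The first base moved with the difference in all coding genes. Of A starts 41.0% were higher, of G starts 24.5% and of C starts 18.3%. Splits of a list by first base are to be read beside these shares.

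**Figure D3:**
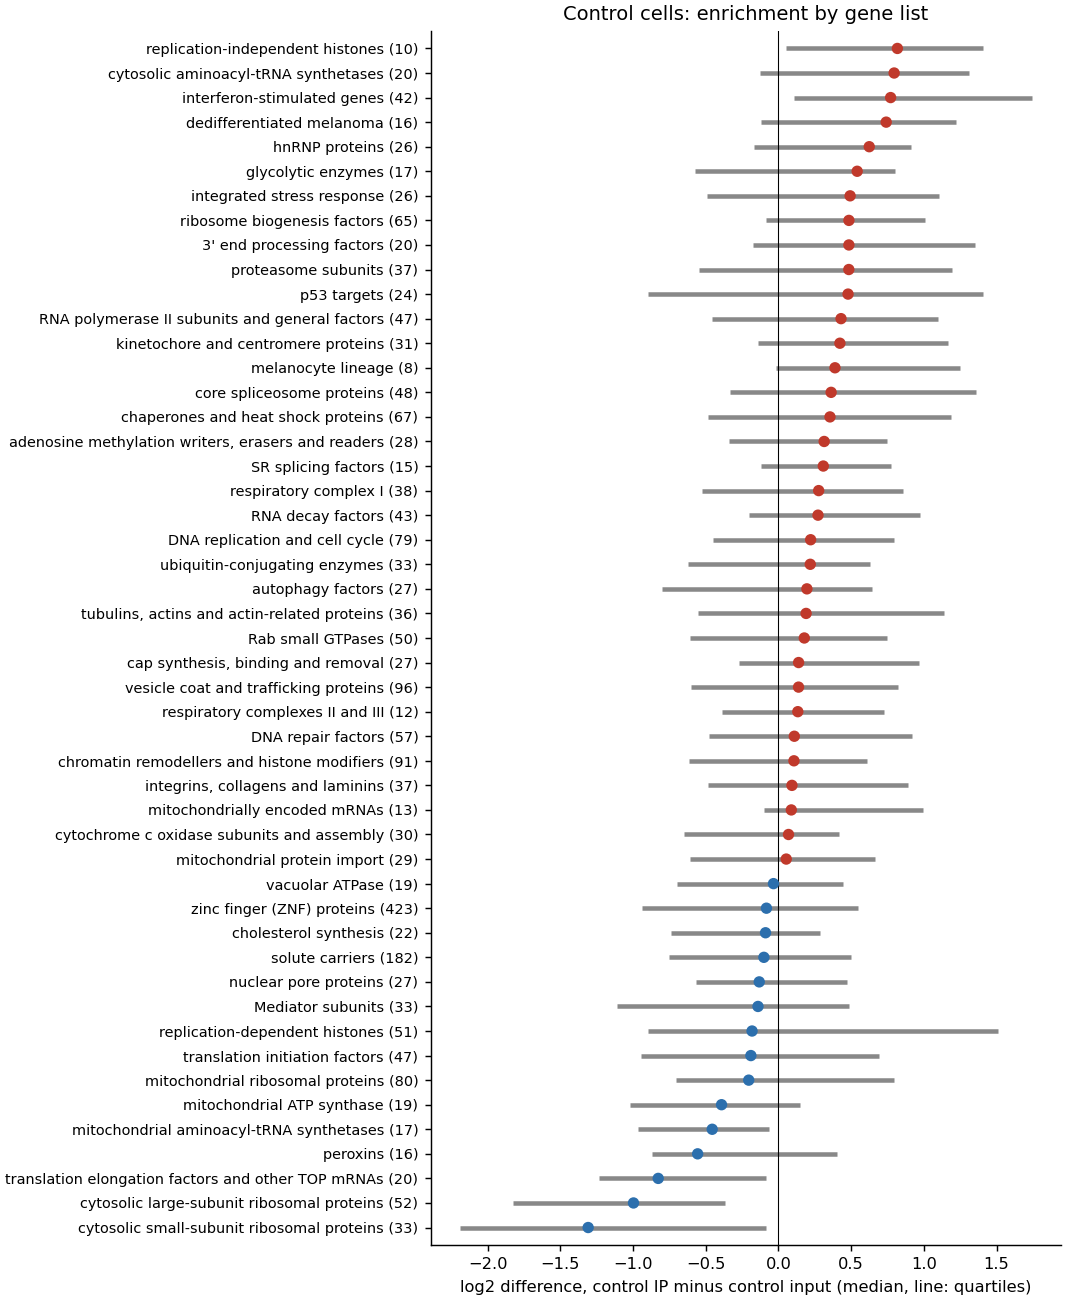
Median log2 difference, control IP minus control input, of each of the 49 gene lists (point) with its quartiles (line), under the deposited scaling. The ribosomal-protein-centred medians of the ribosomal protein lists lie near 0 by construction. Ribosomal proteins of both subunits, elongation factors and other TOP mRNAs, and peroxins lie lowest, with medians of -1.31, -0.997, -0.83 and -0.56 (-0.10, 0.21, 0.38 and 0.66 ribosomal-protein-centred); replication-independent histones (0.82), cytosolic aminoacyl-tRNA synthetases (0.80) and interferon-stimulated genes (0.77) lie highest.

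The translation machinery divided by the role of its parts. Cytosolic ribosomal proteins, which build the ribosome, were lower in the IP in 59 of 85 measured genes and higher in 7, with a median of -1.01 (0.20 ribosomal-protein-centred). The small-subunit list had 21 of 33 lower and 5 higher (median -1.31, against -0.10 ribosomal-protein-centred), and the large-subunit list 38 of 52 lower and 2 higher (median -0.997, against 0.21 ribosomal-protein-centred). Because these genes themselves set that centring, their own centred medians lie near 0 by construction and are no check on them. Taken IP library by IP library against the mean input, the median over all 85 was -1.11, -0.93 and -1.07. Together they took 2.81% ± 0.084 of the reads in the IPs and 8.09% ± 0.33 in the inputs (SD, n = 3 each). Other ribosomal proteins went the opposite way. RPL26L1, a close relative of RPL26, averaged 49.5 ± 4.1 CPM in the IPs and 19.7 ± 1.85 CPM in the inputs (1.33 ± 0.14). RPL6 had 221, 222 and 215 CPM in the IPs, against 101, 102 and 92.6 CPM in the inputs (1.15 ± 0.10). RPS15, RPS4X and RPS27L were higher by 1.34 ± 0.14, 1.24 ± 0.12 and 1.19 ± 0.12. The starts of 4 of these 5 are shown because they differ in what follows the first base.
RPL26L1, chr5:172959404-172959433, plus strand: cttgcgcggcacggaaactcActtccggcc
RPL6, chr12:112409596-112409625, minus strand: cggaagccgggaccttaattCtctttccca
RPS15, chr19:1438376-1438405, plus strand: ataactgcgcaggcgcggacCaaagcgatc
RPS4X, chrX:72277239-72277268, minus strand: cgcgcgcagtctccagccccAatttctacg
RPL6 keeps the pyrimidine run of a TOP start, RPS15 has a C with purines directly after it, and the other pair start with A.

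A start of C followed by at least 4 pyrimidines was found in 61 of the 85 ribosomal protein genes. Of these 46 were lower in the IP and 3 higher, with a median of -1.31 (-0.10 ribosomal-protein-centred), while of the 24 with another start 13 were lower and 4 higher, with a median of -0.58. The split was wider in the small subunit, at a median of -1.42 over 25 genes with such a start and 0.05 over 8 without. Elongation factors and other TOP mRNAs had 13 of 20 lower and 0 higher, with a median of -0.83 (0.38 ribosomal-protein-centred). EEF1A1, which brings aminoacyl-tRNA to the ribosome, had 44.1, 47.3 and 38.9 CPM in the IPs, against 179.6, 167 and 184 CPM in the inputs (-2.03 ± 0.13). EEF2, the translocase, averaged 489 ± 50.3 CPM in the IPs and 1387 ± 167 CPM in the inputs (-1.50 ± 0.12). GAS5, a TOP-type long non-coding RNA that hosts snoRNAs, had 201, 245 and 194 CPM in the IPs, against 1538, 1562 and 1548 CPM in the inputs (-2.87 ± 0.10). The values of all 3 genes were separate between IP and input.

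Initiation factors, which assemble the ribosome on the mRNA, were divided by their first base. Of 47 genes 16 were higher and 21 lower, with a median of -0.19 (1.02 ribosomal-protein-centred). Those with a C start followed by 4 pyrimidines had 0 of 15 higher and 13 lower (median -1.18), and the other 32 had 16 higher and 8 lower (median 0.42). EIF5B, the factor that joins the subunits, had 219, 209 and 238 CPM in the IPs, against 44.7, 30.3 and 41.5 CPM in the inputs (2.53 ± 0.13). EIF1AX, which stimulates scanning, had 1069, 1110.0 and 1130.2 CPM in the IPs, against 241, 250.03 and 257 CPM in the inputs (2.14 ± 0.09), and EIF3J was higher by 2.04 ± 0.10. Of the factors lower in the IP, EIF4A2, a helicase of the cap-binding complex, had 14.5, 12.9 and 14.04 CPM in the IPs, against 58.9, 61.2 and 60.5 CPM in the inputs (-2.12 ± 0.13). The eIF3 subunits EIF3A and EIF3M differed by -1.79 ± 0.11 and -1.47 ± 0.09. Subunits of one complex thus lay on both sides, EIF3J above and EIF3A and EIF3M below.

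The enzymes that charge tRNAs in the cytosol had a high median of 0.80, with 11 of 20 (55%) higher in the IP and 4 lower. Coding genes of their quintile of level had 51.7% higher, 30.4% lower and a median of 0.31. KARS1, for lysine, had 701, 723 and 735 CPM in the IPs, against 192, 166 and 167 CPM in the inputs (2.04 ± 0.11). HARS1, for histidine, and MARS1, for methionine, were higher by 1.69 ± 0.09 and 1.62 ± 0.11. Of the 12 genes of this list with an A start, 9 were higher and 0 lower (median 1.19). Their counterparts in mitochondria lay low, with 0 of 17 higher, 9 lower and a median of -0.46 (0.76 ribosomal-protein-centred). That list was in quintile 3 of level, where 32.4% of coding genes were higher, 33.7% lower and the median was -0.02. The lists thus differed in level as well. IARS2, for isoleucine, had 60.2, 56.0 and 60.5 CPM in the IPs, against 170.4, 205 and 199 CPM in the inputs (-1.70 ± 0.13), although it has an annotated A start. AARS2, for alanine, differed by -1.65 ± 0.23. Ribosome biogenesis factors, which process rRNA and assemble subunits in the nucleolus, had 34 of 65 (52.3%) higher, 12 lower and a median of 0.48. The share higher was near the 51.7% of their quintile of level, whose median was 0.31. RRP15 and GNL3 were higher by 2.74 ± 0.16 and 2.62 ± 0.15, and FBL, the methyltransferase that works with C/D box snoRNAs and has a C start, was lower (-1.82 ± 0.11), at 60.8 ± 3.61 CPM in the IPs and 214 ± 18.1 CPM in the inputs.

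Nuclear genes for mitochondrial proteins differed among complexes and with the first base. Mitochondrial ribosomal proteins, which translate the mitochondrial mRNAs, had 28 of 80 higher and 32 lower, with a median of -0.20 (1.01 ribosomal-protein-centred), against a median of 0.08 in coding genes of the same quintile of level. Those with an A start had 17 of 31 higher (median 0.66), those with a G start 10 of 40 higher and 19 lower (median -0.40), and those with a C start 1 of 9 higher and 6 lower (median -0.70). MRPL2 had 248, 241 and 244 CPM in the IPs, against 51.4, 45.9 and 42.1 CPM in the inputs (2.40 ± 0.14). MRPL21 had 5.43, 11.6 and 9.98 CPM in the IPs, against 55.4, 52.1 and 49.98 CPM in the inputs (-2.61 ± 0.24). Complex I, the entry point of the respiratory chain, had 17 of 38 higher and 11 lower (median 0.28). Coding genes of its quintile of level had 51.7% higher and a median of 0.31. NDUFS6 was at 1.76 ± 0.13 and NDUFA10 at -1.93 ± 0.20. The ATP synthase had 4 of 19 higher and 10 lower, with a median of -0.39 (0.82 ribosomal-protein-centred). Among its genes with a C start 0 of 9 were higher and 7 lower, and ATP5F1E, with such a start, had 117, 138 and 109 CPM in the IPs, against 438, 453 and 412 CPM in the inputs (-1.85 ± 0.10).

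The electron carrier and its partners parted as well. CYCS, cytochrome c, had 403, 512 and 485 CPM in the IPs, against 75.05, 72.9 and 80.6 CPM in the inputs (2.61 ± 0.14). CYC1, cytochrome c1 of complex III, had 154, 128 and 139 CPM in the IPs, against 593, 534 and 544 CPM in the inputs (-1.99 ± 0.09). Cytochrome c oxidase subunits and assembly factors had 9 of 30 higher and 9 lower (median 0.07). COX18, which inserts a subunit into the membrane, had 3.34, 2.70 and 2.36 CPM in the IPs, against 36.4, 38.1 and 42.7 CPM in the inputs (-3.81 ± 0.33), and COX10, which makes heme O, was higher by 1.71 ± 0.13. In protein import, 11 of 29 genes were higher and 10 lower (median 0.05). The receptor TOMM20 had 128, 132 and 121 CPM in the IPs, against 672, 714 and 737 CPM in the inputs (-2.48 ± 0.08), and TOMM34, a cytosolic co-chaperone of import, 1270.0, 1034 and 1136 CPM against 246, 218 and 218 CPM (2.33 ± 0.13). TOMM20 has a C start and TOMM34 an A start.

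The lists of RNA processing lay above the median of all genes. The hnRNP and SR lists were in the highest quintile of level, where 51.7% of coding genes were higher (median 0.31). The other lists in this paragraph were in quintile 4 (39.5% higher, median 0.08). The hnRNP proteins, which bind nascent RNA, had 18 of 26 higher and 5 lower (median 0.62). Core spliceosome proteins had 24 of 48 higher and 11 lower (median 0.36). SF3B1, which recognises the branch point with U2, had 44.3, 61.2 and 59.2 CPM in the IPs, against 17.8, 17.9 and 11.8 CPM in the inputs (1.81 ± 0.17). SF3B2, of the same complex, had 57.4, 47.8 and 48.6 CPM in the IPs, against 207, 205 and 189 CPM in the inputs (-1.97 ± 0.12). With SF3B3 the complex thus had members on both sides. SR splicing factors had 8 of 15 higher and 1 lower (median 0.31), close to the share higher and the median of their quintile of level. TRA2B had 1160.1, 1208 and 1227 CPM in the IPs, against 206, 206 and 208 CPM in the inputs (2.54 ± 0.08), and SRSF3, which has a C start, was higher by 1.07 ± 0.10. Factors of 3' end processing had 13 of 20 higher and 2 lower (median 0.48), and all 7 with an A start were higher (median 1.41). PAPOLA, the poly(A) polymerase, had 525, 569.7 and 537 CPM in the IPs, against 149.7, 159 and 167 CPM in the inputs (1.78 ± 0.10). CPSF1, which helps bind the poly(A) signal, was at -2.02 ± 0.14. RNA decay factors had 20 of 43 higher and 10 lower (median 0.27), with EXOSC2 of the exosome at 1.93 ± 0.13 and the decapping enzyme DCP2 at -1.68 ± 0.18.

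The methylation machinery itself was among the measured genes. Writers, erasers and readers of methylated adenosine had 12 of 28 (42.9%) higher and 8 (28.6%) lower (median 0.31). The list was in quintile 4 of level, where 39.5% of coding genes were higher, 33.5% lower and the median was 0.08. METTL3, the catalytic subunit of the m6A writer, had 154, 168 and 161 CPM in the IPs, against 56.0, 61.5 and 50.9 CPM in the inputs (1.53 ± 0.11). YTHDC1, the nuclear reader, had 229, 235 and 223 CPM in the IPs, against 50.9, 53.2 and 58.2 CPM in the inputs (2.08 ± 0.10). METTL16, which methylates a hairpin RNA, was higher by 1.54 ± 0.20. PCIF1, the m6Am writer, has a G start and had 30.1, 23.7 and 26.0 CPM in the IPs, against 57.8, 52.5 and 49.4 CPM in the inputs, a difference of -1.01 ± 0.14 that becomes positive when ribosomal-protein-centred. Cap synthesis, binding and removal factors, in the same quintile of level, had 9 of 27 (33.3%) higher and 7 lower (median 0.14). CMTR1, which methylates the ribose of the first base, was higher by 1.44 ± 0.17.

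RNA polymerase II subunits and general factors had 19 of 47 (40.4%) higher and 12 lower (median 0.43). Coding genes of their quintile of level had 32.4% higher and a median of -0.02. POLR2L, a small subunit with an A start, had 1349, 1349 and 1324 CPM in the IPs, against 338, 291 and 283 CPM in the inputs (2.15 ± 0.09). POLR2A, the largest subunit, with a G start, had 7.99, 6.37 and 9.47 CPM in the IPs, against 22.4, 23.2 and 26.6 CPM in the inputs (-1.61 ± 0.18). The zinc finger (ZNF) proteins, the largest list, had 80 of 423 higher and 115 lower. Their median of -0.08 (1.13 ribosomal-protein-centred, and 0.02 with each library centred on its median) stood at the level of all genes, and their A starts had a median of 0.30 over 184 genes, their G starts -0.57 over 193 and their C starts -0.33 over 45. Chromatin remodellers and histone modifiers had 27 of 91 higher and 26 lower (median 0.11), shares close to those of all genes.

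Histone mRNAs of different kinds had different medians but also different levels. The median log2 CPM was 8.68 for the replication-independent and 4.08 for the replication-dependent genes. In their quintiles of level 51.7% and 32.4% of coding genes were higher, so kind and level cannot be told apart here. The replication-independent histones, whose mRNAs are polyadenylated, had 6 of 10 higher and 1 lower (median 0.82). H2AZ2, a variant of H2A, had 624, 692 and 667 CPM in the IPs, against 241, 220.2 and 233 CPM in the inputs (1.51 ± 0.10), and H3-3A, a variant of H3, was higher by 1.49 ± 0.09. The replication-dependent histones, whose mRNAs end in a stem-loop without a poly(A) tail, had 20 of 51 higher and 15 lower, with a wide spread (quartiles -0.90 and 1.51). Their median of -0.18 changed sign in several settings, to 1.03 when ribosomal-protein-centred, 0.56 over members with a mean log2 CPM of 3 or more and 0.15 without IP library 3. The first base divided them, as it did coding genes in general. In coding genes of their quintile of level 44.3% of A starts and 22.6% of G starts were higher. Of 32 with an A start 19 were higher and 3 lower (median 1.08), of 14 with a G start 0 were higher and 9 lower (median -0.97), and of 5 with a C start 1 was higher and 3 lower. H3C13 had 60.2, 43.9 and 40.9 CPM in the IPs, against 9.21, 7.18 and 4.45 CPM in the inputs (2.84 ± 0.24), and H2AC25 had 9.86, 5.32 and 8.96 CPM in the IPs, against 58.4, 54.4 and 57.6 CPM in the inputs (-2.87 ± 0.17). Both have an annotated C start, and histone genes share near-identical sequence, so that reads may be split among copies. These mRNAs passed a purification on poly(A), and no value here shows what that step removed.

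Proliferation lists lay near or above the median of all genes. Kinetochore and centromere proteins had 18 of 31 (58.1%) higher and 4 lower (median 0.42). Coding genes of their quintile of level had 32.4% higher and a median of -0.02. Of the 14 with an A start 11 were higher and 0 lower, beside 44.3% higher among coding A starts of that quintile. DNA replication and cell cycle genes had 29 of 79 (36.7%) higher and 21 lower (median 0.22), beside 39.5% higher and a median of 0.08 in their quintile. RFC3, a clamp-loader subunit, was at 2.41 ± 0.10. MCM5, of the replicative helicase, had 4.73, 6.11 and 6.17 CPM in the IPs, against 31.8, 32.6 and 26.1 CPM in the inputs (-2.41 ± 0.20). DNA repair factors had 21 of 57 (36.8%) higher and 14 lower (median 0.11), beside 32.4% higher in their quintile of level.

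Genes of protein quality control also differed by first base, as coding genes did in general. Proteasome subunits had 23 of 37 higher and 12 lower (median 0.48), with 14 of 17 A starts higher (median 0.66) and 7 of 18 G starts higher and 10 lower (median -0.37). In coding genes of their quintile of level, 65.2% of A starts and 45.3% of G starts were higher. PSMC4, an ATPase of the regulatory particle with an A start, had 145, 149 and 149 CPM in the IPs, against 42.0, 31.9 and 32.5 CPM in the inputs (2.07 ± 0.13). PSMD5, an assembly chaperone of the proteasome with a G start, had 18.9, 20.0 and 19.6 CPM in the IPs, against 65.6, 70.6 and 74.5 CPM in the inputs (-1.85 ± 0.15). Chaperones and heat shock proteins had 32 of 67 (47.8%) higher and 17 lower (median 0.35). Coding genes of their quintile of level had 39.5% higher and a median of 0.08. Of the 35 with an A start 23 were higher and 2 lower, beside 51.0% higher among coding A starts of that quintile. PFDN6, of the prefoldin complex, was higher by 2.503 ± 0.13. HSP90AB1, a cytosolic HSP90 with a C start, had 97.2, 104 and 89.2 CPM in the IPs, against 497, 439.5 and 413 CPM in the inputs (-2.22 ± 0.12). Peroxins, which build peroxisomes, lay low, with 4 of 16 higher, 9 lower and a median of -0.56 (0.66 ribosomal-protein-centred). PEX6, an ATPase with a C start, had 24.99, 24.0 and 17.6 CPM in the IPs, against 57.0, 64.5 and 55.2 CPM in the inputs (-1.42 ± 0.14).

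In metabolism and transport, glycolytic enzymes had 11 of 17 higher and 5 lower (median 0.54). ENO1, enolase, had 6776, 6605 and 6340.2 CPM in the IPs, against 2727, 2279 and 2131 CPM in the inputs (1.47 ± 0.13), and HK2, hexokinase, was higher by 1.58 ± 0.14. GAPDH, given above, and LDHB, with -1.26 ± 0.10, were lower. The list's summed share of reads went the other way from its median, at 1.25% ± 0.039 in the IPs and 1.41% ± 0.097 in the inputs (SD, n = 3 each). Solute carriers had 48 of 182 higher and 50 lower, close to all genes, with a median of -0.10 (1.11 ribosomal-protein-centred and 0.03 at a mean log2 CPM of 3 or more). SLC2A1, the glucose transporter, had 1487, 1488 and 1423 CPM in the IPs, against 341, 329 and 339 CPM in the inputs (2.12 ± 0.08). SLC7A11, the cystine importer, was higher by 2.12 ± 0.14.

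Among programs of response and cell state, interferon-stimulated genes had 19 of 42 higher and 1 lower, with a median of 0.77, against -0.07 in coding genes of the same quintile of level. Over the members whose start is set apart from other genes the median was 0.43. ISG20, an exonuclease, had 41.8, 40.2 and 38.7 CPM in the IPs, against 10.3, 9.01 and 7.08 CPM in the inputs (2.21 ± 0.19). IFIT3 and IFITM3, both antiviral proteins, were higher by 2.03 ± 0.21 and 1.81 ± 0.12, and all 3 have an annotated G start. The integrated stress response had 14 of 26 higher and 7 lower (median 0.49). ATF4, its transcription factor, had 2989, 2944 and 2852 CPM in the IPs, against 794, 784 and 818 CPM in the inputs (1.87 ± 0.10) in spite of an annotated C start, and DDIT4, an inhibitor of mTORC1, had 205, 196 and 209 CPM in the IPs, against 738, 762 and 773 CPM in the inputs (-1.90 ± 0.09). The p53 targets had 11 of 24 (45.8%) higher and 8 lower (median 0.48), beside 39.5% higher and a median of 0.08 in their quintile. The repair factor XPC was at 2.62 ± 0.12 and the ubiquitin ligase MDM2 at -1.52 ± 0.16. Genes of dedifferentiated melanoma had 7 of 16 higher and 4 lower (median 0.74). FOSL1, an AP-1 factor, had 4878, 4501 and 4422 CPM in the IPs, against 1313, 1243 and 1218 CPM in the inputs (1.87 ± 0.09).

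Medians of RNA classes reached lower than those of functions, down to -2.60 against -1.31, the former in 7SL-related RNAs, most of them at few reads. Protein-coding genes took 92.8% ± 0.24 of the reads in the IPs and 87.0% ± 0.64 in the inputs (SD, n = 3 each), with 3776 of 12047 higher and 3422 lower and a median of 0.03. Long non-coding RNAs (lncRNAs), which are capped like mRNAs, had 428 of 1987 (21.5%) higher and 325 (16.4%) lower, with a median of 0.10. The intergenic ones had 51 of 200 higher and 20 lower (median 0.32), the antisense ones 109 of 474 and 53 (median 0.16), and those divergent from a coding gene 75 of 291 and 38 (median 0.16). HK2-DT, divergent from HK2, had 139, 128 and 155 CPM in the IPs, against 23.2, 24.1 and 24.3 CPM in the inputs (2.56 ± 0.11). WARS2-AS1, antisense to WARS2, had 124, 128 and 114 CPM in the IPs, against 24.5, 26.9 and 22.8 CPM in the inputs (2.30 ± 0.12). LINC01291 was higher by 2.24 ± 0.17. The remaining lncRNAs without such a name had 183 of 966 higher and 190 lower, with a median of -0.0023. Hosts of snoRNAs lay low, with 2 of 23 higher, 17 lower and a median of -1.55 (-0.33 ribosomal-protein-centred). SNHG29 had 158, 204 and 168 CPM in the IPs, against 948, 1032 and 1001 CPM in the inputs (-2.50 ± 0.10), and SNHG19 differed by -2.97 ± 0.13, whereas SNHG21 was higher by 1.90 ± 0.17. Hosts of microRNAs had 8 of 33 higher and 7 lower (median 0.17).

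**Figure D4:**
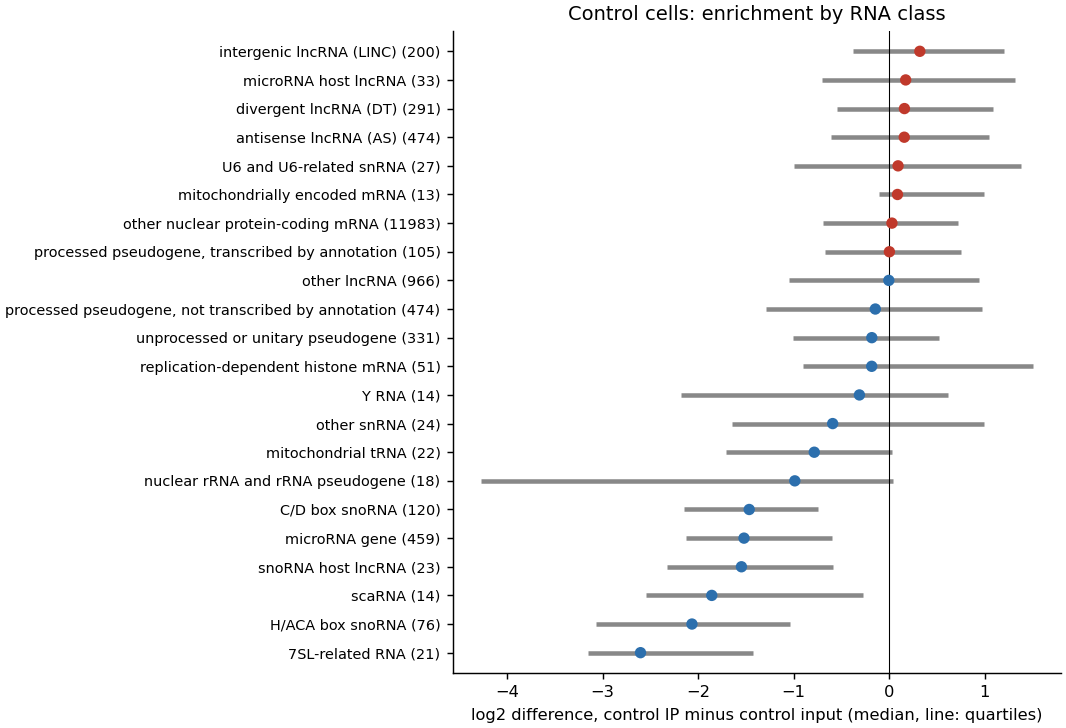
Median log2 difference, control IP minus control input, of each RNA class of at least 13 genes (point) with its quartiles (line), under the deposited scaling. RNAs related to 7SL (-2.60), H/ACA box snoRNAs (-2.06), small Cajal body RNAs (-1.86), snoRNA hosts (-1.55), microRNA genes (-1.52) and C/D box snoRNAs (-1.46) lie lowest and stay below 0 when ribosomal-protein-centred (-1.39, -0.85, -0.65, -0.33, -0.31 and -0.25), while coding genes (0.03) and most lncRNAs lie near 0. Most 7SL-related genes have few reads (median log2 CPM -0.04), and 0 of 14 small Cajal body RNAs have a start set apart from other genes.

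The snoRNAs, which guide the modification of rRNA, were lower in the IP in 153 of 211 genes and higher in 11, with a median of -1.58 (-0.37 ribosomal-protein-centred). They took 1.60% ± 0.092 of the reads in the IPs and 4.55% ± 0.35 in the inputs (SD, n = 3 each). By kind, 84 of 120 C/D box snoRNAs were lower and 6 higher (median -1.46), and 60 of 76 H/ACA box snoRNAs were lower and 2 higher (median -2.06). SNORD32A, a C/D box snoRNA, had 615, 717 and 623 CPM in the IPs, against 5982, 5993 and 5463 CPM in the inputs (-3.16 ± 0.12). SNORA73A, an H/ACA box snoRNA, had 7.06, 6.64 and 4.14 CPM in the IPs, against 101, 85.8 and 71.6 CPM in the inputs (-3.88 ± 0.21). Only 4 of the 211 have a start set apart from other genes on the same strand, since most lie inside a host gene. Reads at their starts therefore cannot be told apart from those of the host, and SNORD32A lies in a ribosomal protein gene. The microRNA genes are in the same position, with 304 of 459 lower, 25 higher, a median of -1.52 (-0.31 ribosomal-protein-centred) and 23 starts set apart.

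Several RNAs made by RNA polymerase III were lower in the IP. RNAs related to 7SL, the RNA of the signal recognition particle, had 16 of 21 lower and 0 higher (median -2.60, against -1.39 ribosomal-protein-centred). Most of these genes had few reads, with a median log2 CPM of -0.04 over the class, so that the class median is uncertain. Together they took 0.0557% ± 0.0044 of the reads in the IPs and 0.458% ± 0.066 in the inputs (SD, n = 3 each). RN7SL1, a functional 7SL gene, had 117, 147 and 113 CPM in the IPs, against 1119, 1285 and 959 CPM in the inputs (-3.16 ± 0.12). RMRP, the RNA of RNase MRP, had 151, 172 and 182 CPM in the IPs, against 655, 680.1 and 719 CPM in the inputs (-2.03 ± 0.14). The copies of 7SL share sequence, so reads may be split among them. U6 and related snRNAs had 7 of 27 higher and 3 lower (median 0.09), at few reads, and their sign changed with the setting.

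Transcripts of the mitochondrial genome, which carry no m7G cap, did not move as one. The 13 mRNAs had 6 higher and 1 lower, with a median of 0.09 (1.30 ribosomal-protein-centred), which was -0.03 without input library 1 and -0.02 without IP library 3. Only 2 of the 13 have a start set apart from other genes on the same strand, and of these 0 were higher and 1 lower (median -0.39). Against the mean input the list median was -0.24, 0.23 and 0.36 in the 3 IP libraries, so that 1 stood below the other two. MT-CO1, of cytochrome c oxidase, had 173, 276 and 310.3 CPM in the IPs, against 368, 458 and 538 CPM in the inputs (-0.87 ± 0.19, positive when ribosomal-protein-centred). MT-ATP8, of the ATP synthase, had 290.3, 493 and 532 CPM in the IPs, against 106, 136 and 159 CPM in the inputs (1.69 ± 0.22). The start of MT-ATP8 lies within or near another mitochondrial gene. The tRNAs had 12 of 22 lower and 2 higher, with a median of -0.78 (0.43 ribosomal-protein-centred). Their median was -1.33, -0.71 and -0.43 in the 3 IP libraries. Only 5 of the 22 have a start set apart from other genes on the same strand, and all 5 were lower (median -2.41). MT-TW had 42.9, 48.6 and 38.4 CPM in the IPs, against 286, 286 and 393 CPM in the inputs (-2.88 ± 0.15). Of the 2 rRNAs, MT-RNR2 was higher (0.47 ± 0.10) and MT-RNR1 lower (-1.26 ± 0.13).

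The first base of the transcript divided the coding genes. Of 5549 with an annotated A start, 41.0% were higher in the IP and 17.7% lower, with a median of 0.32. Of 5061 with a G start, 24.5% were higher and 34.9% lower, with a median of -0.17 (1.04 ribosomal-protein-centred). Of 1366 with a C start, 18.3% were higher and 47.9% lower, with a median of -0.51 (0.70 ribosomal-protein-centred). A starts took 46.7% of all reads in the IPs and 32.6% in the inputs, C starts 12.3% and 20.7%, and G starts 33.5% and 33.5%. With starts taken from RefSeq the medians were 0.30 for A, -0.15 for G and -0.37 for C. Among 7855 genes with the same start in both annotations they were 0.35, -0.20 and -0.58. The order A, G, C also held within most functions. The A median exceeded the G median in 38 of the 41 lists with at least 5 genes of each, the exceptions being RNA decay factors, integrins, collagens and laminins, and initiation factors. It exceeded the C median in 20 of 21 such lists, the exception being core spliceosome proteins, and the G median exceeded the C median in 14 of 19.

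The bases next to the first one moved with the difference too. C starts followed by 4 pyrimidines had a median of -0.69 over 681 genes, against -0.32 over the other 685 C starts. Outside the ribosomal, TOP and initiation factor lists, 595 coding genes had such a start, of which 51.9% were lower and 14.6% higher (median -0.61). An A preceded by T had a median of 0.43 over 874 genes, and an A preceded by C 0.31 over 4168.

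The G and C content of the first 200 transcript bases moved with the difference across all first bases. Over quintiles of the coding genes, from the lowest GC content of these bases to the highest, the median was 0.45, 0.22, 0.06, -0.14 and -0.35. Within A starts it was 0.80, 0.52, 0.34, 0.14 and -0.13, within G starts 0.21, -0.01, -0.08, -0.37 and -0.49, and within C starts -0.19, -0.31, -0.60, -0.61 and -0.74. In each quintile the medians kept the order A, G, C. Whether base composition affected capture, amplification or counting was not tested.

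**Figure D5:**
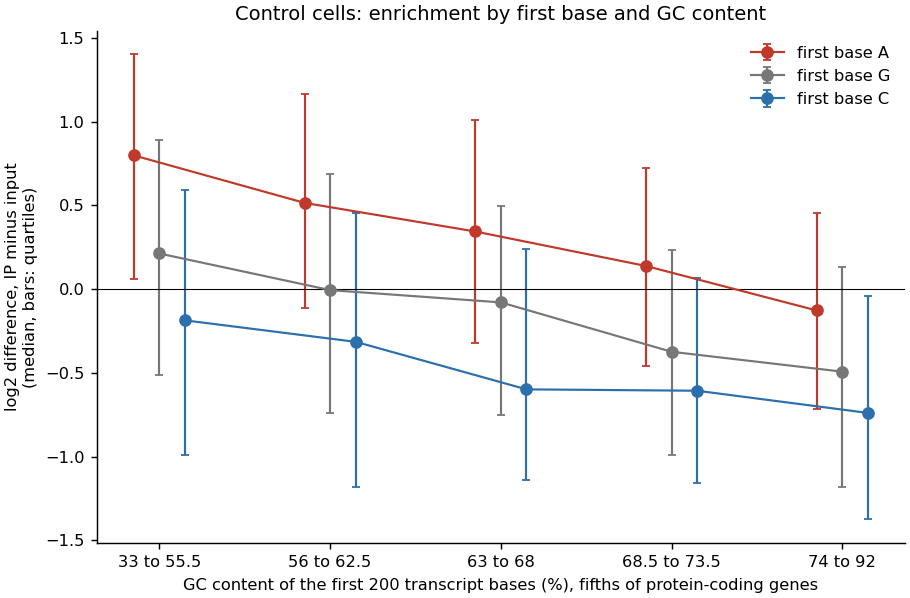
Median log2 difference, control IP minus control input, of protein-coding genes by first base (A, G or C) over 5 equal groups (quintiles) of the GC content of the first 200 transcript bases, with quartiles, under the deposited scaling. The medians fall with GC content within each base, for A starts 0.80 in the lowest quintile and -0.13 in the highest, and A lies above G and G above C in every quintile.

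The motif GGAC, a core of the sequence that METTL3 methylates inside mRNAs, was counted on the transcript strand in the first 200 bases of the canonical transcript. It was present at least once in 65.3% of the coding genes. The median difference was -0.03 with 0 copies, 0.03 with 1, 0.11 with 2, 0.07 with 3 and 0.23 with at least 4. Within A starts it was 0.25, 0.33 and 0.39 for 0, 1 and at least 2 copies, within G starts -0.25, -0.18 and -0.04, and within C starts -0.58, -0.55 and -0.46. The steps with GGAC were smaller than those between first bases, and a match of these letters is not a measured methylation site. Level moved with the first base as well. From the lowest to the highest quintile of level the A median was 0.08, 0.25, 0.29, 0.35 and 0.61, the G median -0.34, -0.29, -0.26, -0.09 and 0.13, and the C median -0.38, -0.56, -0.50, -0.56 and -0.53.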

How the data were processed

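Reads at transcription start sites were measured in 12 libraries of the second stage of the study; 18 libraries of the first stage, in which 8 antibodies were compared, are not analysed here. The table deposited by the authors holds log2 CPM, and the tools named per the submitters' processing notes are edgeR 3.12.1, R 3.3.3, featureCounts, HISAT2 2.0.4, SAMtools 1.7 and deepTools 3.0.2, with build hg38. The sources used here do not give the window, annotation, strand setting, handling of multiple hits or gene filter. With a count of 0.25 taken off, 100% of the deposited values came out as whole reads within 0.01. CPM keeps no absolute amount, a log2 difference understates changes of genes with few reads, and no molecular identifiers are named in the labels, so reads may not be independent molecules.

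The table's columns are numbered 1 to 3 and the labels lettered, so columns were assigned to groups only and the numbers only name libraries. A model with 4 group means over 12 libraries and a mean-variance trend was fitted by limma 3.58.1 (R 4.3.3), and control IP minus control input was tested over 16009 genes (Benjamini-Hochberg adjusted p under 0.05). The procedure was tested on simulated data. Names, classes and starts come from GENCODE 44 (15903 genes matched, 14485 named) and RefSeq starts from a table on hg38. Starts were called set apart unless a same-strand gene contains them or starts within 200 bases, as for 3322 genes, and 6358 have a gene near them on the other strand. Both checks used the outer 5' end of the gene record, whereas first bases and sequences were taken at the canonical start, and the positions can differ.

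Genes were named by rule: the 12 largest differences each way (above), up to 3 each way in each of 49 lists and up to 4 in each RNA class among called genes without overlap and with a mean log2 CPM of 3 or more, and the 5 coding genes with the highest level in IPs and in inputs. The comparison, the lists and the named groups were chosen with earlier results of these data known. Alternatives were other centrings, a level filter, another pseudocount, set-apart starts, a replicate block, the control libraries alone, each library left out, and voom weights, RefSeq starts and scaling to the total of recovered reads, the last 3 chosen after seeing the data.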

Additional observations from a re-analysis of the deposited data

How the results depend on the processing

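No call turned direction in any alternative except centring on ribosomal protein genes, which called 10192 genes higher and 846 lower in the IP, 1140 of them lower under the deposited scaling. Of the named genes, MT-CO1 (0.34) and PCIF1 (0.21) then lay above 0 with their calls lost, and the calls of RPLP1, EEF2, EIF3M, AARS2, DCP2, POLR2A, LDHB, PEX6, MDM2 and MT-RNR1 were lost on the same side. Asking for a 2-fold difference besides left 5154 genes, 2457 higher and 2697 lower. Leaving out each library gave 8041 to 8193 genes in all, 4002 to 4092 higher and 3975 to 4157 lower. The other settings stayed within 1.5 times of the 8944, from 7033 (of 9679 genes whose mean log2 CPM reached 3) to 9918 (voom weights on recovered reads). The edgeR and DESeq2 alternatives were not run, because the deposited unit is not a count. With the column number as a replicate block 9215 genes were called. Deviations of same-numbered IP and input libraries correlated at 0.160, 0.0947 and 0.221, each library correlating best with its own number, a hint from the data. The labels give IP and input replicates the same letters, A to C, but do not tie letters to column numbers. With 1 correlation under 0.1 and no such tie, libraries were not taken as paired in the main fit, although the design may pair them. List medians near 0 changed sign with the setting, 3 of 49 with each library centred on its median, 9 scaled to the total of reads, 14 centred on ribosomal proteins, 6 where members had to reach a mean log2 CPM of 3, and 3 over set-apart starts. At few reads, as in U6, Y RNA, 7SK and most 7SL-related genes, depth limits what can be called.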

Other observations

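Other functions and RNA classes showed smaller or mixed differences between control IP and control input, and are given as values. Members higher and lower in the IP numbered 15 and 11 of 33 among ubiquitin-conjugating enzymes (median 0.22), 8 and 8 of 27 among autophagy factors (median 0.20), and 5 and 5 of 12 in respiratory complexes II and III (median 0.13). MAP1LC3B, the LC3 protein of autophagosomes, had 327, 338 and 367 CPM in the IPs, against 89.0, 67.7 and 73.3 CPM in the inputs (2.17 ± 0.11, log2, SE). Mediator subunits had 11 higher and 12 lower of 33 (median -0.14, against 1.07 ribosomal-protein-centred), and nuclear pore proteins 7 and 11 of 27 (median -0.13, against 1.08). Vesicle coat and trafficking proteins had 38 higher and 28 lower of 96 (median 0.14), Rab small GTPases 18 and 15 of 50 (median 0.18), and the vacuolar ATPase 4 and 6 of 19 (median -0.03, against 1.18). Tubulins, actins and actin-related proteins had 15 higher and 10 lower of 36 (median 0.19). ACTG1, a cytoplasmic actin with a C start, had 228, 222 and 206 CPM in the IPs, against 856, 666 and 656 CPM in the inputs (-1.72 ± 0.11). Integrins, collagens and laminins had 11 higher and 6 lower of 37 (median 0.09). COL13A1, a transmembrane collagen, had 1172, 1184 and 1226 CPM in the IPs, against 199, 197 and 230.4 CPM in the inputs (2.52 ± 0.08). Cholesterol synthesis had 6 higher and 9 lower of 22 (median -0.09, against 1.12), and melanocyte lineage genes 3 and 2 of 8 (median 0.39).

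Processed pseudogenes without annotated transcription had 60 higher and 100 lower of 474 (median -0.14, against 1.07 ribosomal-protein-centred), and those with it 24 and 14 of 105 (median 0.00). Small Cajal body RNAs had 0 higher and 7 lower of 14 (median -1.86, against -0.65). None of them has a start set apart from other genes on the same strand, so their reads cannot be told apart from those of the host. Their median was -2.14, -1.22 and -1.24 in the 3 IP libraries. Nuclear rRNA genes and pseudogenes had 0 higher and 7 lower of 18 (median -0.99, against 0.22), Y RNAs 2 and 6 of 14 (median -0.31, against 0.90) and snRNAs other than U6 2 and 7 of 24 (median -0.59, against 0.62).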
